A study of Fragaria vesca with 9 samples.

Results

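The homeodomain-leucine zipper gene FvH4_1g20230, matched in Swiss-Prot to Arabidopsis ATHB-6, and its neighbour FvH4_1g20221, which carries a Ulp1 protease domain, were followed in fruit of woodland strawberry (Fragaria vesca). They were 2 of the 34777 genes listed, chosen by their identifiers because both were nearly absent from fruit of both FvMATE51 mutant lines. Their difference from wild type therefore chose them, and it is given here as a description with no test. Fruits were collected 26 days after anthesis from wild type (WT), from the Fvmate51-1 mutant (library name crfvmate51_1, called line 1) and from the Fvmate51-2 mutant (library name crfvmate51_2, called line 2). Each group gave 3 libraries of poly(A) RNA, sequenced on an Illumina platform. FvMATE51 is described by the submitters as a protein of the vacuolar membrane, and the series compares wild type with FvMATE51 mutant fruit. The labels do not give the mutations, the cultivar, or whether the replicates came from separate plants, so the p-values reflect spread among libraries alone, which may be technical.

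Homeodomain-leucine zipper (HD-Zip) proteins are plant transcription factors in which a homeodomain binds DNA and the adjoining leucine zipper joins a pair of proteins. In Arabidopsis, the class I protein ATHB-6 is induced by abscisic acid and binds the protein phosphatase ABI1, a repressor of abscisic acid signalling. Abscisic acid promotes ripening in strawberry fruit. Ulp1-type proteases remove the small protein SUMO from other proteins, and in plants such domains also occur in transposable elements.

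Levels are given in FPKM (fragments scaled to gene length and to library size). Listed genes held 31587667 to 51649115 fragments per library. No description in the table names MATE51, so the level of the mutated gene was not analysed here. Wild type replicate 3 and line 1 replicate 2 stood apart on the third principal component of all tested genes, at 19.4 and 14.8, while the other libraries lay between -12.7 and 4.3. The summed level of 139 genes matched by descriptions typical of fruit flesh and ripening was 19350 to 20890 FPKM in wild type, 15210 to 16580 in line 1 and 16710 to 17020 in line 2, with 60 to 62 of them at 0 in a whole group. The 24 achene and seed genes summed to 321 to 417, 330 to 434 and 305 to 367 FPKM, the 16 vascular genes to 179 to 195, 209 to 219.5 and 191 to 199 FPKM, and the 4 pollen genes to at most 0.975 FPKM in any library. Their part in the results was not tested. In whole fruit, fewer cells of a type and less RNA per cell cannot be told apart.

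Both genes lie on chromosome 1 and point in opposite directions. FvH4_1g20230 is listed from 12443386 to 12446282 on the plus strand, with 2512 bases of gene length and Pfam domains for the homeodomain and the associated leucine zipper, and it was the only one of the 34777 genes matched to ATHB-6. FvH4_1g20221 is listed from 12431379 to 12438254 on the minus strand, with 4316 bases of gene length, a Ulp1 C-terminal catalytic domain and no Swiss-Prot match. The gap between them is 5131 bases and the pair spans 14904 bases, and no other listed gene starts in that gap. The start of FvH4_1g20222, a short gene on the plus strand, overlaps FvH4_1g20221 by 408 bases. FvH4_1g20222 was at 0 in every library. Whether counting used strand is not given in the sources used here, so reads of these overlapping genes may not be separable.

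The ATHB-6 match was abundant in wild type fruit and almost absent from both lines. Its level in wild type replicates 1 to 3 was 149, 148 and 127 FPKM, from 16641, 14917 and 16802 fragments. In line 1 it was 0.553, 0.487 and 0.900 FPKM, from 57, 43 and 96 fragments, and in line 2 it was 0.895, 1.03 and 0.803 FPKM, from 87, 103 and 81 fragments. All 3 wild type libraries were high, all 6 mutant libraries were low, and the groups on either side did not overlap. Wild type averaged 141 ± 12.2 FPKM (SD, n = 3), line 1 0.647 ± 0.222 and line 2 0.910 ± 0.115, so that the mean was 219-fold lower in line 1 and 155-fold lower in line 2. Without wild type replicate 3, the lowest of its group and 1 of the 2 libraries that stood apart, these folds were 229.5 and 163. From summed fragments, the ratio of wild type to line was 213 for line 1 (95% interval 185 to 247) and 154 for line 2 (137 to 174.5). These exact intervals cover counting error only.

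The message was not at 0 in any mutant library. Each of the 6 held between 43 and 103 fragments, well above the 3 fragments used as the detection floor, and the level there was 0.345% to 0.730% of the wild type mean. Among all 34777 genes the ATHB-6 match ranked 678th by mean level in wild type, 16328th in line 1 and 15358th in line 2. Among the 35 HD-Zip genes it ranked second in wild type, 20th in line 1 and 18th in line 2.

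**Figure D1:**
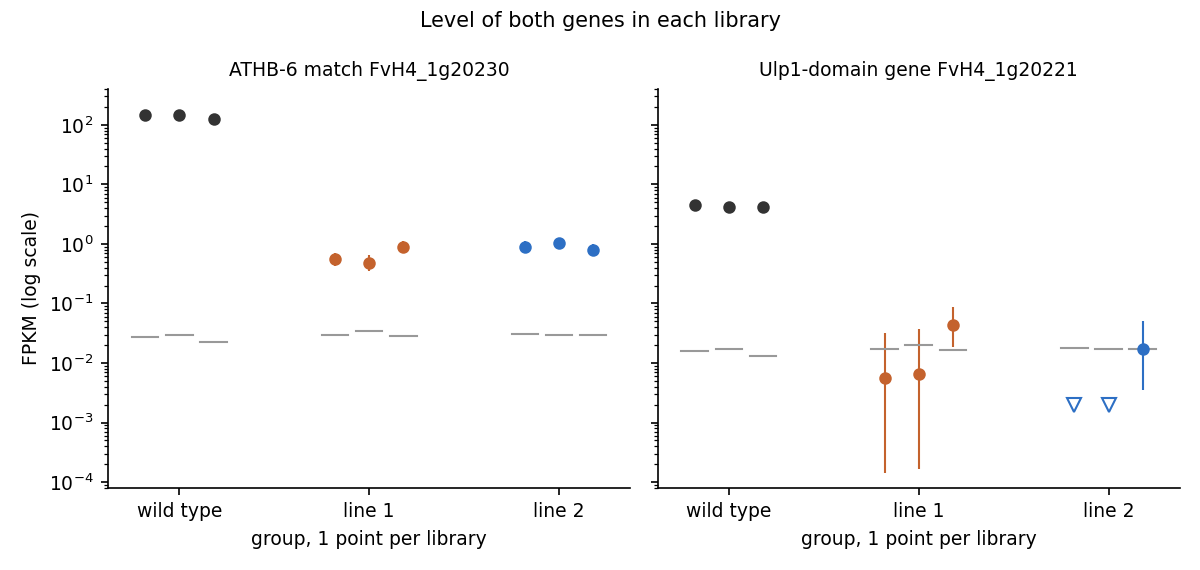
FPKM on a log scale for the ATHB-6 match (left) and FvH4_1g20221 (right), with 1 point per library and replicates 1 to 3 from left to right in each group. Bars are exact 95% counting intervals, grey ticks mark the level of 3 fragments, and open triangles near the bottom stand for libraries at 0. The ATHB-6 match stayed above the tick in all 6 mutant libraries, whereas FvH4_1g20221 was at 0 to 8 fragments there.

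FvH4_1g20221, the Ulp1-domain gene, was present at a low level in wild type and at or near the detection floor in both lines. Wild type replicates held 4.51, 4.13 and 4.09 FPKM, from 866, 715 and 929 fragments. Line 1 held 0.00564, 0.00659 and 0.0437 FPKM, from 1, 1 and 8 fragments, and line 2 held 0, 0 and 0.0173 FPKM, from 0, 0 and 3 fragments. Only line 1 replicate 3 exceeded the floor of 3 fragments, and no mutant library came near the wild type range. Over summed fragments, 2510 in wild type stood against 10 in line 1, a ratio of 217 (95% counting interval 118 to 453). Against the 3 fragments of line 2 the ratio was 723 (247 to 3509), an interval so wide that the folds of the lines overlap.

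Within line 1, both genes were highest in replicate 3. The ATHB-6 match held 0.900 FPKM there (counting interval 0.729 to 1.10), above the intervals of replicate 1 (0.419 to 0.716) and replicate 2 (0.352 to 0.656). For FvH4_1g20221 the interval of replicate 3, 0.0189 to 0.0861 FPKM, overlapped those of the other two, which reached up to 0.0367. As a share of the wild type mean, replicate 3 of line 1 held 0.637% of the ATHB-6 level and 1.03% of the FvH4_1g20221 level.

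The lines were compared with each other by limma on log2(FPKM + 1), a contrast whose difference uses no wild type level and was not used to choose the genes. Its SE and p-value come from the fit of all 9 libraries, wild type included. Line 2 exceeded line 1 by 0.22 ± 0.113 (SE) in the ATHB-6 match, with a 95% interval of -0.03 to 0.47 and an adjusted p of 0.181 over 15890 genes. The difference did not pass the threshold of 0.05, and the interval leaves room for equal levels as well as for a higher level in line 2. Over 18 alternative settings the difference lay between 0.151 and 0.484 and the adjusted p between 0.0525 and 0.403, with the lowest p reached without line 1 replicate 3. The largest differences came on other scales, 0.469 with a pseudocount of 0.1 and 0.484 in a fit of fragment counts. At such low levels log2(FPKM + 1) understates a fold. In mean FPKM, line 2 held 1.41 times the level of line 1. FvH4_1g20221 held 10 fragments in line 1 and 3 in line 2, too few for a fold. Across the table, 27.6% of tested genes passed this test between the lines.

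Both genes entered the test because of their wild type libraries, since the filter asked for 1 FPKM or more in 3 or more of the 9 libraries. Here and below, the fit of both lines against wild type compares the mean of the 2 lines with wild type. A call in it need not hold in each line. In this fit, 34.9% of the 15890 tested genes were called at an adjusted p under 0.05, 16.8% higher and 18.1% lower. The split of 2674 higher and 2871 lower turned to 3095 and 2270 after rescaling to equal FPKM sums. With a log2 change of -6.33 the ATHB-6 match had the second lowest log2 change of all tested genes, and FvH4_1g20221, whose size is limited by its low wild type level on this scale, ranked 30th. Nothing is read from these ranks beyond the choice of the genes.

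The genes on either side were examined to see how far along the chromosome the difference reached. Of 28 other rows starting within 100 kb, 17 could be tested. Their log2 changes in the mean of the lines against wild type were small, between -0.23 and 0.45. The median was 0.09, beside a median of 0.0007 for all genes. By limma, 3 of the 17 were called higher, 2 lower, and 12 were not called, a share of 29.4% beside the 34.9% of all genes. In line 1 alone, 4 were called higher and 4 lower, 47.1% beside 35.5% of all genes, with changes from -0.63 to 0.69. In line 2 alone, 1 was called higher and 1 lower, 11.8% beside 30.4%, with changes from -0.26 to 0.70. The other 11 rows did not reach the filter, and 6 of those were at 0 in every library. No tested row of the window other than the pair reached a 2-fold change in FPKM + 1 against wild type, in the mean of the lines or in either line. Between the lines 1 did, bHLH94, described below.

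The immediate neighbours kept levels of the same order. RIBA 1 FvH4_1g20220, an enzyme of riboflavin synthesis whose gene ends 1307 bases before FvH4_1g20221, was at 7.89, 8.03 and 6.88 FPKM in wild type, 5.81, 5.37 and 5.95 in line 1, and 6.96, 7.14 and 7.03 in line 2. All line 1 libraries lay below all wild type libraries, and line 2 overlapped wild type and was not called alone (adjusted p = 0.421). The log2 change of both lines was -0.23 ± 0.074 (SE, limma adjusted p = 0.0364). That call was lost in 11 of 18 alternatives (adjusted p 0.0101 to 0.162), among them the fits without wild type replicate 1 or 2, line 1 replicate 1 or 2, or any 1 library of line 2. On the other side, FvH4_1g20231 starts 4629 bases after the ATHB-6 match and stayed under 1 FPKM in every library. A transcript outside the annotation, which starts 11298 bases after it, was at 1.54, 1.17 and 1.56 FPKM in wild type, 0.849 to 1.82 in line 1 and 0.877 to 1.23 in line 2, and was not called (adjusted p = 0.328).

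Farther out in the window, the change with the lowest adjusted p was in SAPK1 FvH4_1g20310, matched to a rice kinase of the SnRK2 family, which relays abscisic acid and osmotic stress signals. Its level was 38.3, 36.5 and 42.4 FPKM in wild type, 59.3, 72.5 and 59.5 in line 1, and 44.5, 47.5 and 44.2 in line 2. Both lines lay above wild type in every library, line 1 by more. It rose by 0.45 ± 0.080 (SE, limma adjusted p = 0.00187) in the fit of both lines, and line 2 minus line 1 was -0.48 (adjusted p = 0.00306). Against wild type alone, line 1 was called (0.69, adjusted p = 0.000292) and line 2 was not (0.21, adjusted p = 0.104). GCL1 FvH4_1g20300, a LanC-like protein, rose from 243.7 ± 12.1 FPKM to 292.9 ± 3.40 in line 1 and 267.5 ± 7.75 in line 2 (log2 change 0.20, adjusted p = 0.021). The LMBR1-domain gene FvH4_1g20250 rose from 12.2 to 15.4 and 13.7 FPKM (0.24, adjusted p = 0.0447), and ATL54 FvH4_1g20164, a RING-H2 finger protein, fell from 51.6 ± 1.22 to 46.3 ± 1.15 and 43.1 ± 1.42 FPKM (-0.20, adjusted p = 0.0147, not called after rescaling to equal sums or quantiles, 0.00878 to 0.0771 over all settings). Against wild type alone, GCL1 and the LMBR1-domain gene were called in line 1 (adjusted p 0.0110 and 0.0256) and not in line 2 (0.145 and 0.222), and ATL54 in line 2 (0.0107) and not in line 1 (0.0776). Leaving out single libraries took the number of called genes in the window from 5 to between 2 and 4. It was 2 without wild type replicate 1, line 1 replicate 1, or line 2 replicate 1 or 2, and 3 without wild type replicate 2 or line 2 replicate 3. GCL1 lost its call without wild type replicate 1 or 2, line 1 replicate 1, or line 2 replicate 1 or 2 (adjusted p 0.000184 to 0.0898 over all settings). The LMBR1-domain gene lost its call in 11 of 18 settings (0.0256 to 0.141), including every single-library fit but those without wild type replicate 2 or line 1 replicate 2.

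**Figure D2:**
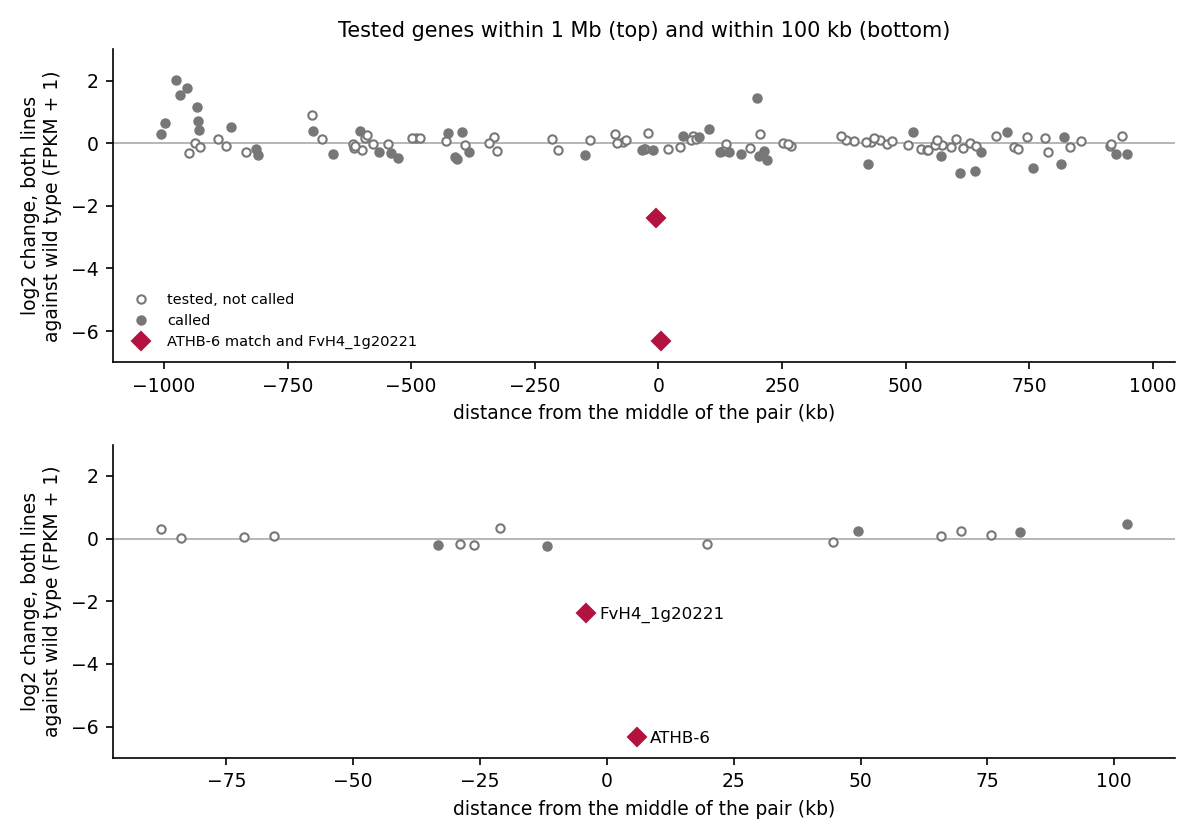
log2 change of both lines against wild type, on FPKM + 1, for each tested gene by its distance in kb from the middle of the pair, within 1 Mb (top) and in the 100 kb window (bottom). Filled circles passed the limma threshold, open circles did not, and diamonds are the ATHB-6 match and FvH4_1g20221. In the window the other 17 genes lie between -0.23 and 0.45, while the pair lies far below them.

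Between the lines, 6 of the 17 neighbours were called by limma, 4 higher and 2 lower in line 2, a share of 35.3% beside 27.6% of all genes, 15.4% higher and 12.2% lower. The largest difference was in bHLH94 FvH4_1g20160, a basic helix-loop-helix transcription factor. It was at 5.76, 7.12 and 7.91 FPKM in wild type, 4.06, 4.53 and 3.74 in line 1, and 11.1, 12.95 and 11.5 in line 2, with no overlap between any of the groups. Line 2 exceeded line 1 by 1.33 ± 0.116 (SE, adjusted p = 1.17e-05), and the gene was lower than wild type in line 1 (-0.63, adjusted p = 0.00225) and higher in line 2 (0.70, adjusted p = 0.00114). FvH4_1g20180 and FvH4_1g20190, both without a description, were also higher in line 2 than in line 1, by 0.75 (adjusted p = 0.000931) and 0.62 (adjusted p = 0.0104). FvH4_1g20150, matched to a bacterial magnesium-transporting ATPase, was lower in line 2, at 1.62 FPKM against 2.82 (-0.55, adjusted p = 0.0129), a call lost without line 2 replicate 2 (adjusted p 0.00702 to 0.0553 over all settings). RIBA 1 was higher in line 2 by 0.26 (adjusted p = 0.0412), lost in 12 of 18 settings and in 8 of the 9 fits that left out 1 library, all but that without wild type replicate 3 (0.0151 to 0.217).

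Beyond the window, 108 tested genes within 1 Mb held 17 called higher and 25 lower in both lines against wild type, 38.9% beside the 34.9% of all genes, with log2 changes from -0.95 to 2.03. On the rest of chromosome 1, 251 of 1724 tested genes were higher and 284 lower, 31.0% in all. No gene other than the pair was at least 20-fold lower in both lines within 1 Mb.

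The other HD-Zip genes show what remained of this family in the mutant fruit. Of 34 listed without the ATHB-6 match, 18 were tested. By limma 7 were higher, 2 lower and 9 not called in the mean of the 2 lines against wild type. That is a share of 50% beside 34.9% of all genes, with a median log2 change of 0.21 beside 0.0007. The 2 called lower, ATHB-12 and HAT14, were lower than wild type in line 1 and not in line 2. By class, 4 of 8 tested class I genes were higher and 1 lower, 2 of 4 class II genes higher and 1 lower, 1 of 3 class III genes higher, and 0 of 3 class IV genes were called. After rescaling that gave all libraries an equal FPKM sum, 9 HD-Zip genes were higher and 1 lower. In single lines, 3 class I genes were higher and 1 lower in line 1 (beside 35.5% of all genes called, 16.5% higher and 19% lower), and 7 were higher and 1 lower in line 2 (beside 30.4%, 15.3% higher and 15.1% lower). These comparisons share the wild type libraries.

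ATHB-16 FvH4_5g15520, a class I gene which in Arabidopsis restrains leaf cell expansion, was the HD-Zip gene nearest in level to the ATHB-6 match in wild type, at 135, 127 and 139 FPKM. It held 228, 258 and 225 FPKM in line 1 and 189, 197 and 192 in line 2. Every mutant library lay above every wild type library, and line 1 lay above line 2. It rose by 0.67 ± 0.064 (SE, limma adjusted p = 2.66e-05) and differed between the lines by -0.30 (adjusted p = 0.0125), a call lost without line 2 replicate 1 (0.00224 to 0.0562 over all settings). A second ATHB-16 match, FvH4_5g36570, was at 6.94, 8.04 and 9.63 FPKM in wild type, line 1 and line 2 (adjusted p = 0.0637). In single lines it was called higher in line 2 (0.43, adjusted p = 0.0328) and not called in line 1 (0.321).

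Both ATHB-13 matches, class I genes linked in Arabidopsis to cotyledon and leaf shape, rose. FvH4_4g31640 went from 65.7 ± 5.07 FPKM to 105 ± 9.10 in line 1 and 86.9 ± 3.09 in line 2 (0.54 ± 0.072, adjusted p = 0.000304), and FvH4_4g32060 from 1.96 ± 0.291 to 7.35 ± 0.231 and 5.25 ± 0.185 (1.29 ± 0.081, adjusted p = 1.2e-06). In both genes the wild type libraries lay below all mutant libraries.

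The matches to ATHB-7 and ATHB-12, which in Arabidopsis are induced by drought and abscisic acid, did not move alike. ATHB-12 FvH4_7g17320 was at 71.2, 71.3 and 77.8 FPKM in wild type, 40.1, 42.5 and 40.3 in line 1, and 94.1, 90.4 and 88.8 in line 2. Line 1 lay below wild type and line 2 above it, with no overlap. The change was -0.83 in line 1 (limma adjusted p = 6.78e-06) and 0.31 in line 2 (adjusted p = 0.00559), and the lines differed by 1.13 ± 0.066 (adjusted p = 5.39e-07). ATHB-7 FvH4_7g32570 was at 38.2 ± 1.5 FPKM in wild type against 41.8 ± 4.97 in line 1 and 52.5 ± 5.36 in line 2 (0.28, adjusted p = 0.0274), and was called in line 2 alone (0.00711) and not in line 1 (0.359). The first call was lost in 5 settings, among them those without wild type replicate 1 or 2 or without line 2 replicate 1 or 2 (0.00954 to 0.145).

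The remaining class I genes were low. HAT5 FvH4_6g50570 was at 1.54, 1.88 and 2.25 FPKM in wild type, line 1 and line 2 (adjusted p = 0.0581), and ATHB-20 FvH4_6g49000 at 2.04, 2.16 and 1.34 (adjusted p = 0.263). In line 2 alone HAT5 was called higher (0.37, limma adjusted p = 0.0384). ATHB-20 was the 1 class I gene called lower there (-0.37, adjusted p = 0.0345). Neither was called in line 1 (0.239 and 0.678). Of the other classes, HAT4 FvH4_5g19570, a class II regulator of the Arabidopsis shade response, rose from 1.92 to 3.58 and 3.87 FPKM (0.69, adjusted p = 0.000376), and ATHB-15 FvH4_6g32240, a class III gene of vascular development in Arabidopsis, from 2.40 to 4.37 and 3.55 (0.54, adjusted p = 0.000944). Vascular marker genes summed to a higher level in line 1 than in wild type, as given above, and their part was not tested. HAT22 FvH4_2g32410 rose from 193 ± 9.67 to 215.9 ± 13.7 and 231.3 ± 7.87 FPKM (0.21, adjusted p = 0.0260; line 1 alone 0.111, line 2 alone 0.0210), lost without wild type replicate 1 or 2 or line 2 replicate 1 or 2 (0.000567 to 0.0879). HAT14 FvH4_4g06590 was at 8.68, 4.75 and 10.2 FPKM (-0.27, adjusted p = 0.0197), lost after rescaling to equal FPKM sums and without wild type replicate 1 (0.0124 to 0.522), and it was called lower in line 1 (-0.75, adjusted p = 0.000116) and not called in line 2 (0.21, adjusted p = 0.0916).

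**Figure D3:**
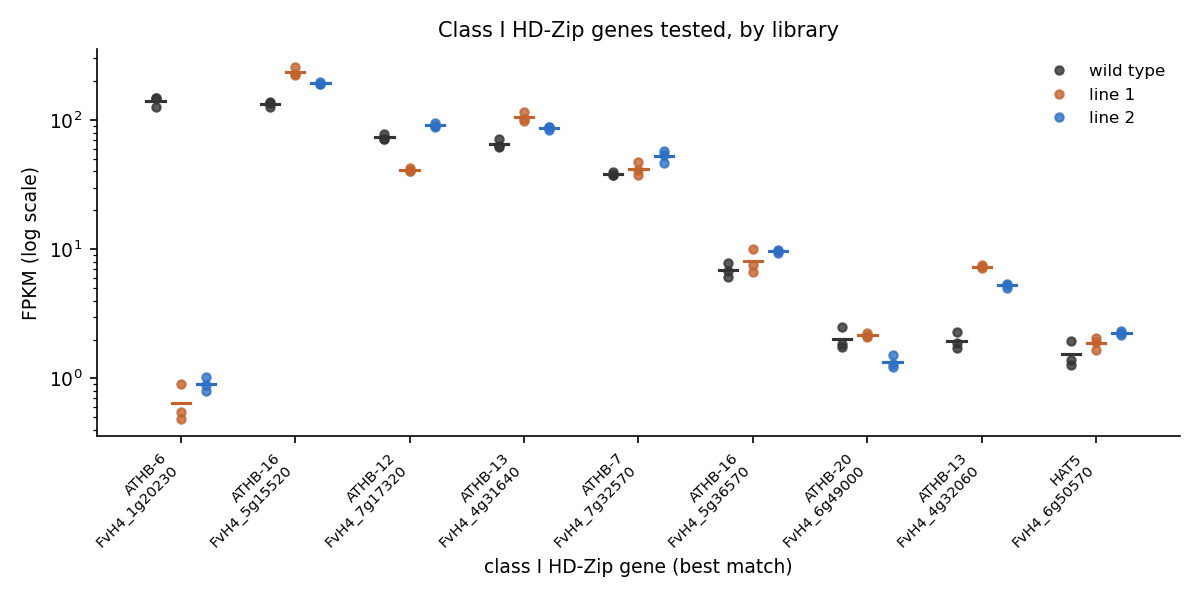
FPKM on a log scale of the ATHB-6 match and the 8 other tested class I HD-Zip genes, with 1 point per library and a bar at each group mean. The ATHB-6 match drops below the other genes in both lines, ATHB-16 FvH4_5g15520 and both ATHB-13 matches lie above wild type in both, and ATHB-12 lies below wild type in line 1 and above it in line 2.

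The summed level of all class I genes, a quantity chosen after the values were seen, differed less between the groups. It was 476, 458 and 460 FPKM in wild type, 429, 486 and 421 in line 1, and 448, 449 and 430 in line 2. Line 1 overlapped both other groups, and every line 2 library lay below every wild type library. The ATHB-6 match made up 31.3%, 32.3% and 27.7% of it in wild type and between 0.10% and 0.23% in the mutant libraries. Without it, the sum of the other class I genes was 323.5 ± 11.6 FPKM in wild type (SD, n = 3), 444.6 ± 35.4 in line 1 and 441.6 ± 10.6 in line 2, and every mutant library lay above every wild type library.

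Genes of abscisic acid synthesis and signalling were examined because ATHB-6 belongs to that pathway in Arabidopsis. In the mean of the 2 lines against wild type, the share called was near that of all genes, and the calls went both ways. Of 70 genes listed by description, 37 were tested. By limma 7 were higher, 7 lower and 23 not called, 37.8% beside 34.9% of all genes, with a median log2 change of -0.02. By role, 1 of 6 tested receptors was higher and 1 lower, 1 of 5 phosphatases higher, 2 of 9 kinases higher and 1 lower, 0 of 4 transcription factors called, 1 of 4 synthesis genes higher and 1 lower, 1 of 2 breakdown genes lower, and 2 of 7 response genes higher and 3 lower. No gene was described as an ABI1 or ABI2 phosphatase, the partner of Arabidopsis ATHB-6. Between the lines, 8 of the 37 were higher and 6 lower in line 2, 37.8% beside 27.6% of all genes. The synthesis gene NCED2 FvH4_3g05440, named after its values were seen, was at 298, 256 and 355 FPKM (line 2 minus line 1 0.48, limma adjusted p = 0.00684). The receptor PYL11 FvH4_3g07731, named likewise, was low, at 0.804, 0.412 and 2.43 FPKM (1.28, adjusted p = 6.58e-05).

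Among the receptors, PYL8 FvH4_7g31130 rose from 37.6 ± 1.54 to 43.1 ± 1.52 and 44.98 ± 0.967 FPKM in lines 1 and 2 (0.22, limma adjusted p = 0.0122), a call lost without wild type replicate 2 (0.00506 to 0.0584 over all settings). PYL4 FvH4_3g07710 was at 10.9, 7.11 and 10.2 FPKM (-0.32, adjusted p = 0.0322), called in line 1 alone (0.0047) and not in line 2 (0.616), and lost in 9 of 18 settings, among them those without any 1 wild type library or without line 2 replicate 1 or 2 (0.0155 to 0.204). A match to phosphatase 2C 16, FvH4_6g34170, of the family that blocks the signal, rose from 36.7 ± 4.15 to 43.9 ± 0.594 and 48.8 ± 1.20 FPKM (0.33, adjusted p = 0.00575). The other tested matches to 2C 16, FvH4_2g31450 and FvH4_1g08010, were not called in the mean of the lines (adjusted p = 0.848 and 0.346). Both were lower in line 2 than in line 1 (-0.49, adjusted p = 0.00271, and -0.39, adjusted p = 0.0258). The second of these calls was lost in 4 of 17 settings. FvH4_1g08010 was also called higher in line 1 than in wild type (0.32, adjusted p = 0.0493). 2C 24 FvH4_3g37010 was at 26.6, 24.3 and 22.1 FPKM (adjusted p = 0.0613). It was called lower in line 2 (adjusted p = 0.0381) and not in line 1 (0.263). Of the SnRK2 kinases, SAPK1 was the gene described above in the window. SAPK3 FvH4_5g20490 was at 23.5 ± 0.220 FPKM in wild type against 15.9 ± 0.355 in line 1 and 23.97 ± 1.31 in line 2, and the mean of the lines was lower than wild type (-0.25, adjusted p = 0.00858). That call came from line 1 (-0.53, adjusted p = 0.000214), since line 2 was not called (0.03, adjusted p = 0.769), and the lines differed by 0.56 (adjusted p = 0.000137).

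Synthesis and breakdown each had a called gene. Zeaxanthin epoxidase FvH4_1g16080, which makes a precursor of abscisic acid, rose from 12.2 ± 0.434 to 14.5 ± 0.299 and 17.3 ± 0.592 FPKM (0.35, limma adjusted p = 0.00139). Xanthoxin dehydrogenase FvH4_7g02370, a later step, was at 4.15, 3.27 and 3.11 FPKM (-0.30, adjusted p = 0.044), lost in 11 of 17 settings, among them those without any 1 wild type library, line 1 replicate 2 or 3, or line 2 replicate 2 or 3 (0.0322 to 0.105). FvH4_2g34420, described as CYP707A1, a hydroxylase that breaks the hormone down, fell from 1.47 ± 0.343 to 1.06 ± 0.119 and 0.618 ± 0.0556 FPKM (-0.43, adjusted p = 0.0108). Its only listed Pfam domain is a thioredoxin domain, which goes against that description, and in single lines it was called in line 2 (-0.60, adjusted p = 0.00403) and not in line 1 (-0.26, adjusted p = 0.123). The other gene of this role, FvH4_2g39460, with a cytochrome P450 domain, was at 1.23, 1.42 and 1.70 FPKM (adjusted p = 0.136). Among the factors, ABI5-like 4 FvH4_2g05900 was at 3.04, 2.18 and 2.70 FPKM (adjusted p = 0.0674). In single lines it was called lower in line 1 (-0.35, adjusted p = 0.0275) and not called in line 2 (0.384). SUPPRESSOR OF ABI3-5 FvH4_7g04410, a splicing factor caught by the name pattern, was at 8.54, 9.78 and 9.88 FPKM (adjusted p = 0.164).

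Response genes, which abscisic acid induces in many plants, split. The late embryogenesis abundant gene At5g17165 match FvH4_7g33540 rose from 109 ± 10.8 to 140 ± 6.30 and 146 ± 10.1 FPKM (0.39, limma adjusted p = 0.00304). The match to the low-temperature-induced protein LTI65, FvH4_7g29491, was at 25.2 ± 0.808 FPKM in wild type, then 44.95 ± 6.34 in line 1 and 25.4 ± 2.02 in line 2, and the mean of the lines was higher than wild type (0.40, adjusted p = 0.00684). Line 1 rose (0.80, adjusted p = 0.000238), line 2 was not called (0.003, adjusted p = 0.984), and line 2 minus line 1 was -0.80 (adjusted p = 0.000225). The 3 called lower, named here after their values were seen, were ECP63 FvH4_6g17400 at 11.9, 10.01 and 2.89 FPKM, Em protein H2 FvH4_6g11170 at 9.26, 8.99 and 2.21 FPKM, and D-34 FvH4_4g15690 at 1.95, 1.5 and 0.611 FPKM. In single lines all 3 were called lower in line 2 (adjusted p 0.000659, 0.000739 and 0.0106) and none in line 1 (0.458, 0.895 and 0.314). Em protein H2 lost its call without wild type replicate 1 (0.00163 to 0.251), and D-34 without wild type replicate 1 or 3, line 1 replicate 2 or 3, or line 2 replicate 2 (0.00299 to 0.132). Of the 7 tested response genes, 5 also belong to the achene and seed markers, of which 2 of 13 tested were higher and 8 lower, 76.9% beside the 34.9% of all genes. In single lines, 2 of these markers were higher and 1 lower in line 1, and 2 were higher and 9 lower in line 2. Their part was not tested.

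**Figure D4:**
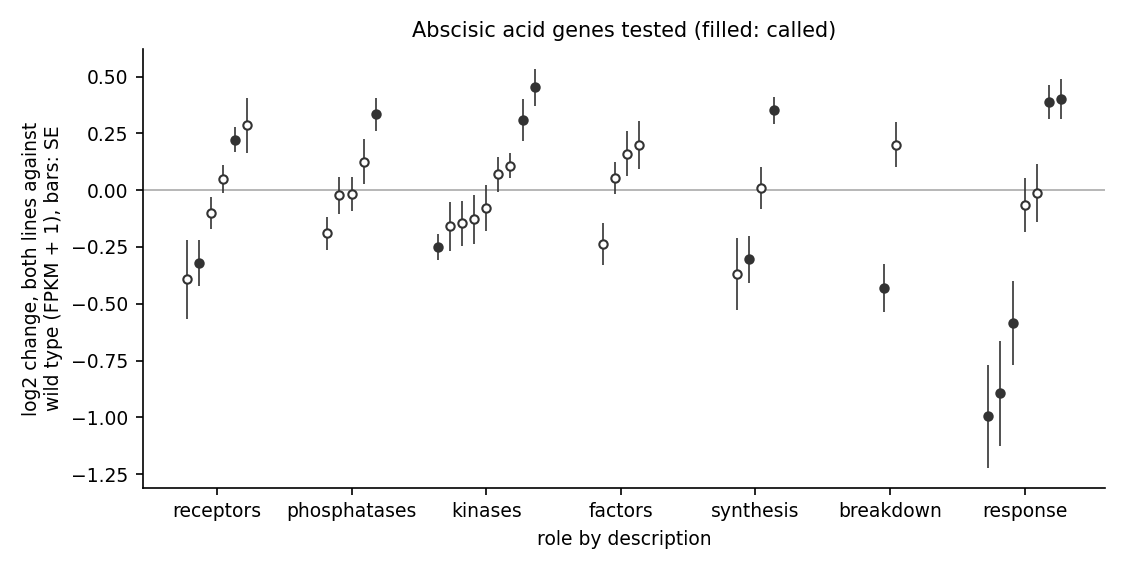
log2 change of both lines against wild type, on FPKM + 1, of the 37 tested abscisic acid genes by role, with bars of 1 SE. Filled points passed the limma threshold and open points did not. Points lie on both sides of 0 in every role, and the lowest is the response gene ECP63.

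The pair was set among the other genes nearly absent from both lines, as a description. At a limit of at least 20-fold lower mean FPKM in each line, 40 of the 15167 genes with a wild type mean of at least 1 FPKM were found, 0.264%, and 34 of them reached the test. In the opposite direction, 5 of 14592 genes were found, 0.0343%. The gene just inside the limit, FvH4_1g02481, was 22.8-fold lower and the one just outside, FvH4_5g34940, 19.3-fold lower, each in the line with the smaller fold. The 40 genes lay on all chromosomes but unevenly, with 6 on chromosome 1, 3 on 2, 17 on 3, 7 on 4, 4 on 5, 2 on 6 and 1 on 7. Genes with a wild type mean of at least 1 FPKM numbered 1766, 2261, 2387, 2010, 2111, 2829 and 1781 on chromosomes 1 to 7. Chromosome 3 thus held more of the 40 than its share, and 13 of the 40 had another of them within 100 kb. The nearest other gene of this kind on chromosome 1 was FvH4_1g12600, 5.51 Mb away from the pair.

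The ATHB-6 match had the second highest wild type level of the 40. The highest was the delta-12 acyl-lipid desaturase FvH4_3g44270, an enzyme of polyunsaturated fatty acid synthesis, at 345.2 ± 46.5 FPKM in wild type and 11.2 and 13.5 in lines 1 and 2. Next came FvH4_6g02714, without a description, at 97.8 FPKM against 0.227 and 0.155, and the ATP-citrate synthase match FvH4_3g10370, of the enzyme that supplies cytosolic acetyl-CoA, at 25.2 FPKM against 0 and 0.0168. FvH4_3g07500 and FvH4_4g14244, also without a description, were at 15.6 and 14.1 FPKM in wild type and at most 0.0832 in a line. Of the 40, 10 had a Swiss-Prot description, and the ATHB-6 match was the only HD-Zip gene.

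Most of these genes were listed at a smaller share of their wild type level than the ATHB-6 match, but depth limits this comparison for those with few fragments. FvH4_3g10411, for example, held 100, 66 and 99 fragments in wild type, against 16641, 14917 and 16802 for the ATHB-6 match. At such depth, a share like that of the ATHB-6 match could leave no fragment. Of the 40, 20 had 0 fragments in all 6 mutant libraries, and of the 38 other than the pair between 3 and 8 held any fragment in a given mutant library. Between 2 and 7 of the 38 exceeded the ATHB-6 match as a share of their wild type mean in a given library. In the opposite direction, an unannotated transcript starting at 35129004 on chromosome 6 went from 0.490 FPKM to 19.2 and 22.9, FvH4_4g29311 was listed at 0 in wild type and at 7.53 and 20.2 in the lines, and FvH4_5g34170 went from 0.0655 to 1.87 and 6.85. An unannotated transcript starting at 11470897 on chromosome 1 was the 1 such gene within 1 Mb of the pair, at 0.0592 FPKM in wild type against 1.82 in line 1 and 2.48 in line 2.

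**Figure D5:**
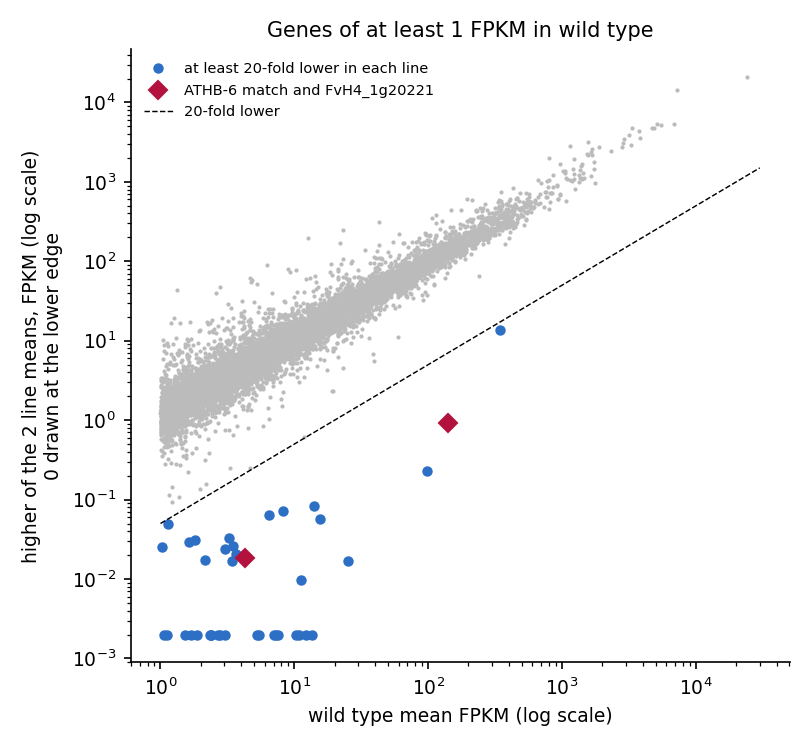
Wild type mean against the higher of the 2 line means, in FPKM on log scales, for the 15167 genes whose wild type mean was 1 FPKM or more, with genes at 0 in both lines drawn in a row near the lower edge. Blue points and red diamonds lie at least 20-fold below wild type, under the dashed line. The ATHB-6 match, at 141 FPKM in wild type, and the desaturase, at 345.2, lie to the right of nearly all others.

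The genes most like each of the pair over the 9 libraries were also of this kind. Pearson r of log2(FPKM + 1) is given as a description, since the libraries fall into wild type and mutant clusters that chose these genes. For the ATHB-6 match, r was 0.9993 with the desaturase FvH4_3g44270, 0.9990 with FvH4_3g10392, which carries a reverse transcriptase-like domain, 0.9988 with FvH4_1g20221, 0.9987 with FvH4_3g10370 and 0.9984 with FvH4_1g03400. For FvH4_1g20221 the closest were FvH4_3g10370 (0.9997), FvH4_3g10392 (0.9996), FvH4_1g03400 (0.9994), a transcript outside the annotation on chromosome 3 (0.9992) and FvH4_3g10411 (0.9989). Only FvH4_1g20221 among them lies near the ATHB-6 match.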

How the data were processed

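The authors deposited FPKM per gene and library. Tools named, per the submitters' processing notes, are HISAT2 2.2.1, featureCounts 2.0.6, StringTie 2.2.3 and fastp; their roles, their order and the genome build are not given in the sources used here. FPKM times gene length came out as whole fragments (100% within 0.02), which gave the counting intervals (exact, 95%) and the floor of 3 fragments. Values were analysed as log2(FPKM + 1), a scale that understates changes of low genes, in the 15890 genes reaching 1 FPKM in 3 or more of the 9 libraries. A model of 3 group means was fitted with limma 3.58.1 (R 4.3.3), with a trended prior and no covariate, with Benjamini-Hochberg adjustment over all tested genes, two-sided, called under 0.05. The fit was tested on simulated data. Tables used Python 3.11.15 and pandas 2.3.3. Lists were word patterns on descriptions; members and lists were chosen with earlier results of these data known. Named were the pair, called genes within 100 kb, tested class I HD-Zip genes and 4 others, 2 abscisic acid genes per role with the lowest adjusted p, 5 genes most like each of the pair, and 6 with the highest wild type level among those at least 20-fold lower, with 3 of the opposite kind and any within 1 Mb. A few more genes were named after their values were seen. Alternatives changed the pseudocount, filter, scaling, model, block and libraries. Of these alternatives, 1 was added after seeing the data.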

Additional observations from a re-analysis of the deposited data

Results flagged for a closer look

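For 19 of the genes described above, the effect in line 1 and the effect in line 2 differed by limma's test of line 2 against line 1. Other genes above that differed between the lines are not repeated here. Values are log2 differences on FPKM + 1, line 2 minus line 1. Among the genes within 100 kb, the difference was 1.33 for bHLH94 FvH4_1g20160, 0.75 for FvH4_1g20180, 0.62 for FvH4_1g20190, 0.26 for RIBA 1 FvH4_1g20220, -0.48 for SAPK1 FvH4_1g20310 and -0.55 for FvH4_1g20150. Among the class I HD-Zip genes, it was 1.13 for ATHB-12 FvH4_7g17320, 0.32 for ATHB-7 FvH4_7g32570, -0.30 for ATHB-16 FvH4_5g15520, -0.27 and -0.42 for the ATHB-13 matches FvH4_4g31640 and FvH4_4g32060, and -0.44 for ATHB-20 FvH4_6g49000. HAT14 FvH4_4g06590 differed by 0.96. Among the abscisic acid genes, the difference was 0.56 for the kinase SAPK3 FvH4_5g20490, 0.48 for the receptor PYL4 FvH4_3g07710, 0.23 for zeaxanthin epoxidase FvH4_1g16080, -0.80 for the LTI65 match FvH4_7g29491, -1.47 for ECP63 FvH4_6g17400 and -1.68 for Em protein H2 FvH4_6g11170. bHLH94 and ATHB-12 were the 2 of these called in opposite directions against wild type. Several of these calls rest on single libraries. That of FvH4_4g31640 was lost without line 1 replicate 1 or 2 or any 1 library of line 2 (adjusted p 0.0101 to 0.116 over all settings). That of FvH4_7g32570 was lost in 9 of 18 settings, among them those without line 1 replicate 1 or 3 or line 2 replicate 1 or 2 (0.00426 to 0.138). That of FvH4_6g49000 was lost without line 1 replicate 3 or line 2 replicate 1 or 2 (0.0094 to 0.0671). That of FvH4_1g16080 was lost in 7 settings, among them those without line 1 replicate 1 or 3 or any 1 library of line 2 (0.012 to 0.222).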

How the results depend on the processing

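The 10 results counted or tested over the libraries were recomputed under up to 18 settings, and no direction reversed in them or in any called gene of the lists and the window. Of these values, 162 stayed within 1.5 times or on the same side of the threshold and 12 moved; among those called genes, 797 calls stayed and 161 were lost. Fitting both lines as 1 group, which adds the difference between the lines to the residual, called 2591 genes in place of 5545, 0 of the neighbours in place of 5, 5 HD-Zip genes in place of 9 and 4 abscisic acid genes in place of 14. In that fit SAPK1 FvH4_1g20310, ATHB-12 FvH4_7g17320 and FvH4_2g34420 were among those that lost their calls. Neighbours called were 2 with a replicate block and 2 to 4 over the fits without 1 library. Libraries with the same replicate number showed no sign of deviating together (r -0.262 to 0.164 in 9 pairs, -0.182 to 0.213 in 18 pairs of different number). So few libraries cannot exclude a pairing by number. The replicate block called 4672 genes. Genes at least 20-fold lower numbered 18 at a wild type mean of at least 5 FPKM. Rescaling to equal FPKM sums changed the split of calls between the lines from 2453 higher and 1937 lower to 1759 and 2588, and in line 1 against wild type from 2618 and 3027 to 3417 and 2108. Depth limits FvH4_1g20221 in the lines, where 0 to 8 fragments allow no comparison between them.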
